A study of Caenorhabditis elegans with 2 samples.

Results

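The myosin light chain genes of Caenorhabditis elegans were examined in chromatin immunoprecipitation and sequencing (ChIP-seq) data for tagged PAT-9, a C2H2 zinc finger transcription factor that body wall muscle needs in development. The 4 genes were listed by name: mlc-1, mlc-2 and mlc-3, which serve muscle myosin, and mlc-4, which serves nonmuscle myosin. They are 4 of the 19973 protein-coding genes annotated on the 6 chromosomes. All regions with the summit between 3000 bp upstream of a gene and its end were taken. The material was 1 group, late embryos of strain RW12085 with an age label of 3 hours and sexes pooled, in 2 biological replicates. The strain carries a CRISPR insertion at pat-9 on X. Its genotype names mNG with 3xFlag as the tag, and other labels give a GFP fusion. Chromatin was pulled down with an anti-GFP antibody, although mNG (mNeonGreen) is not a derivative of GFP. Whole embryos were used, so an enrichment cannot be assigned to muscle or to any other tissue, and enrichment in fewer cells cannot be told apart from weaker enrichment in more cells. The lists give enrichment of DNA and no expression level, so the tissue was not checked against marker genes.

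A myosin hexamer holds a pair of heavy chains, each with 1 regulatory and 1 essential light chain bound to its lever arm. mlc-1 and mlc-2 encode regulatory light chains of muscle myosin, mlc-3 encodes the essential light chain of muscle myosin, and mlc-4 encodes the regulatory light chain of nonmuscle myosin, which acts in cytokinesis and in the elongation of the embryo. Phosphorylation of the nonmuscle regulatory light chain sets contraction in the embryonic epidermis. Many worm transcripts are trans-spliced to a leader RNA, so an annotated 5′ end can lie downstream of the place where transcription starts.

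The values are the authors' signal per region, ranked from 1 for the strongest within a list. The pooled list and the list of each replicate hold 30000 regions each, down to background, and their median signal was 34.1 in the pooled list, 18.6 in replicate 1 and 22.5 in replicate 2. The 735 optimal peaks, which passed the authors' reproducibility filter (IDR), were exactly the 735 strongest pooled regions, with signal down to 101.3. Every pooled region named here was 430 bp wide, and the summit is its deposited point of highest signal. Coordinates are on ce11. There is no second condition and no second group, so no test between groups was possible, and 2 replicates give only a pair of values per region.

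The stretches at the strongest summits are shown first, because the position and base composition of these sites carry most of what follows. Each runs 5′ to 3′ on the strand of its gene, up to 100 bp on each side of the pooled summit, and stops at the nearest annotated exon. Capitals mark matches to any of 8 motifs on either strand: the E-boxes CAGCTG and CACCTG, the wider E-box CANNTG that includes both, the GA repeat GAGAGA, the TATA box letters TATAAA, the GATA site GATAAG, the SRF CArG box and the MEF2 site. The mlc-1 stretch is chrX:17459004-17459204 on the plus strand, the mlc-2 stretch chrX:17456895-17457084 on the minus strand, the mlc-3 stretches chrIII:5564887-5565024 and chrIII:5563854-5564054 on the plus strand, and the mlc-4 stretch chrIII:3394913-3395113 on the minus strand.
mlc-1, summit -106 bp: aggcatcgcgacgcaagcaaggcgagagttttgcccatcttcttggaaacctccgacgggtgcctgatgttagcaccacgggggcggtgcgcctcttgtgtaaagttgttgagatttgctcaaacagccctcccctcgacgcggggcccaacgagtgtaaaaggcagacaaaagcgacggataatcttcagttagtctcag
mlc-2, summit -409 bp: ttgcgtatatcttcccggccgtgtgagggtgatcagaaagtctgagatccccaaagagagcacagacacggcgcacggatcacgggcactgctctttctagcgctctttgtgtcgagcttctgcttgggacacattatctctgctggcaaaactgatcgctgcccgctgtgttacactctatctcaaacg
mlc-3, summit -38 bp: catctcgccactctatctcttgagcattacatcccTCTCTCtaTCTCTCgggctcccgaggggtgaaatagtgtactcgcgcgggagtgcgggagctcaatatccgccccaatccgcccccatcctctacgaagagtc
mlc-3, summit -1071 bp: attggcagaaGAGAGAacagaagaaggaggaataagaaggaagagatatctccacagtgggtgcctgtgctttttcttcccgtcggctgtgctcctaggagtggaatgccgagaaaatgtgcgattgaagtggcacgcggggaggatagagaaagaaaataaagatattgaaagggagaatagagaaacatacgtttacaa
mlc-4, summit -1226 bp: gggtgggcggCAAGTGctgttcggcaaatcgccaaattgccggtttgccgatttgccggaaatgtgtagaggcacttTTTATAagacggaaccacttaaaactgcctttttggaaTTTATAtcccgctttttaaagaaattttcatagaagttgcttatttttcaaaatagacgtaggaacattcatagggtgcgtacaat

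PAT-9 enrichment passed the authors' filter at all 3 muscle light chain genes and not at the nonmuscle gene mlc-4. Each of mlc-1, mlc-2 and mlc-3 had 2 optimal peaks in its window, and mlc-4 had 0. Over all protein-coding genes, 4.9% had an optimal peak in the same window and 0.295% had 2 or more (59 genes), while 67.7% had some pooled region there, as did all 4 light chain genes. The muscle genes stand for only 2 places in the genome, since mlc-1 and mlc-2 share the same pair of peaks. In a narrower window, with the summit at most 1000 bp before or 500 bp past a 5′ end, 3 of the 4 genes again had an optimal peak, against 2.58% of all genes.

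mlc-1 and mlc-2 are divergent neighbours on X. mlc-1 lies at 17459210 to 17460778 on the plus strand and mlc-2 at 17455792 to 17456586 on the minus strand, with 2624 bp between their 5′ ends. Their windows overlap by 3377 bp, which is 73.9% of the mlc-1 window and 88.99% of the mlc-2 window. The genes are close copies: their coding sequences, 510 bp each, were identical at 493 aligned positions (96.7%). Both coding sequences were less like that of the nonmuscle gene mlc-4 (60.9% for mlc-1 and 60.6% for mlc-2) and that of the essential light chain gene mlc-3 (50.2% and 49.5%).

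The peak beside mlc-1 was the strongest at any of the 4 genes. It covered 17458889 to 17459318 on X, with the summit in intergenic sequence at -106 bp from the 5′ end of mlc-1. Its signal was 160.9 in the pooled list, 57.8 in replicate 1 and 102.8 in replicate 2. These are ranks 290, 343 and 288, so both replicates placed it well inside their own 735 strongest regions. The summit lay at -129 bp in replicate 1 and at -81 bp in replicate 2, which are 48 bp apart. Of all genes, 1.99% had a pooled region of that rank or higher in their window. With mlc-2 set aside, whose window holds the same peak, the gene with the most similar ranks over both replicates was gad-3 on V, at 337 in replicate 1 and 284 in replicate 2.

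The peak beside mlc-2 was weaker, and its position was less certain. It covered 17456780 to 17457209 on X, with the summit at -409 bp from the 5′ end of mlc-2. Its signal was 115.2 in the pooled list, 55.9 in replicate 1 and 66.7 in replicate 2, which are ranks 547, 389 and 708. It was thus inside the strongest 735 of each replicate, near the lower end in replicate 2. Replicate 2 also had a weaker overlapping region here, with its summit at -518 bp (rank 10601). The matched summit was at -442 bp in replicate 1 and at -318 bp in replicate 2, a shift of 124 bp. The median shift over the 735 optimal peaks was 24 bp (quartiles 10 and 55 bp), and 21 of them (2.86%) shifted by as much or more. The summit also lay 90 bp from the annotated noncoding RNA gene C36E6.11. A noncoding RNA gene of this kind lay within 200 bp of the summit of 34.7% of optimal peaks.

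The mlc-1 and mlc-2 peaks were separate sites, with summits 2109 bp apart. No list held a region in the 1540 bp between 17457319 and 17458858. Of 2891 divergent neighbouring gene pairs with 5′ ends at most 3000 bp apart, 142 (4.91%) had at least 1 optimal summit between them and 2 (0.0692%) had 2, this pair and dnj-29 with ndua-2. The near-identity of the coding sequences did not extend to the peaks. Of the 36 bp words in the mlc-1 and mlc-2 genes, 7.43% and 15% occurred elsewhere in the genome too, while none of the 395 words in either peak did. No tRNA, snoRNA, snRNA or rRNA gene lay within 152185 bp of either summit, whereas 32.8% of all optimal peaks had one within 200 bp.

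**Figure D1:**
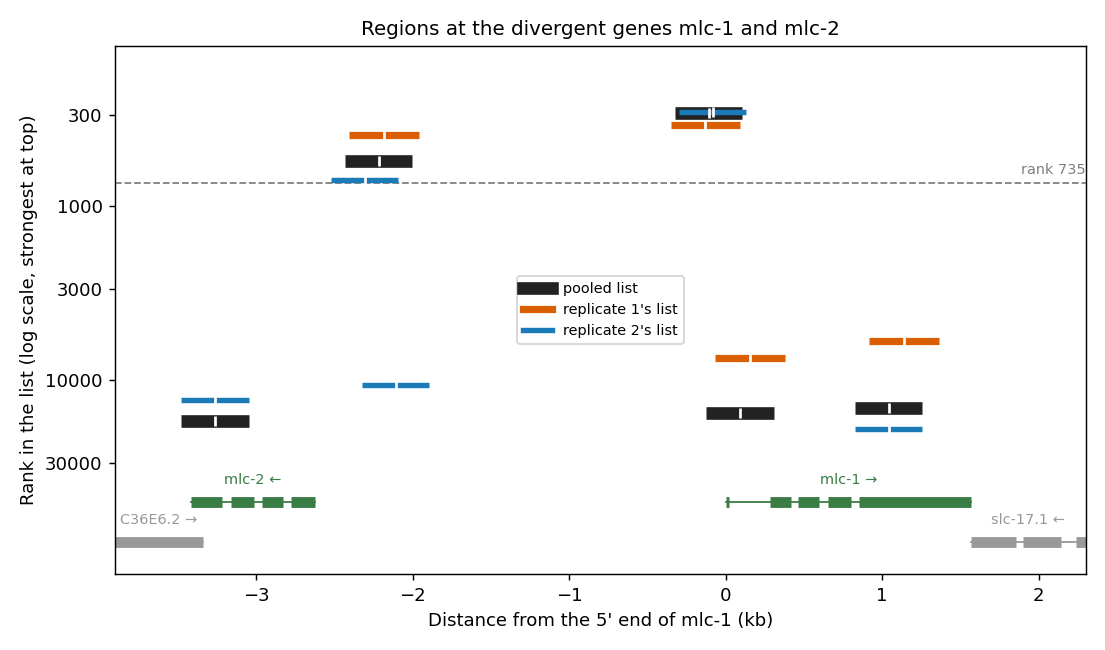
Regions at mlc-1 and mlc-2 in the pooled list (black), replicate 1 (orange) and replicate 2 (blue), with the distance from the 5′ end of mlc-1 in kb on the x axis and the rank in the list on a log y axis, strongest at the top. White ticks are summits, bar thickness only keeps overlapping bars visible, the dashed line is rank 735, and boxes below are exons with light chain genes in green and neighbours in grey. The 3 lists place a strong region just upstream of each gene, between ranks 288 and 343 at mlc-1 and between 389 and 708 at mlc-2, and no region between the pair.

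mlc-3, at 5565025 to 5567382 on the plus strand of III, carried a peak at its 5′ end and a further one inside the gene before it. The first covered 5564772 to 5565201, with the summit at -38 bp in the 187 bp between rpc-2 and mlc-3. Its signal was 133.5 in the pooled list, 35.5 in replicate 1 and 92.1 in replicate 2, which are ranks 389, 1590 and 351. Replicate 2 alone placed it among its 735 strongest. The summit lay at -64 bp in replicate 1 and 7 bp downstream of the 5′ end in replicate 2, a shift of 71 bp that 15.8% of optimal peaks reached or passed. The genes with the most similar ranks over both replicates were T06A10.107 on IV (1600 and 343) and smim-14 on III (1667 and 333).

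The upstream peak covered 5563739 to 5564168, with the summit at -1071 bp, in the last intron of rpc-2 as drawn in the map of the locus. rpc-2 encodes a subunit of RNA polymerase III and runs in the same direction as mlc-3. The pooled signal was 115.6 (rank 543). In replicate 1 the signal was 27.5 (rank 4272), and in replicate 2 it was 85.8 (rank 400). The nearest annotated 5′ end was that of mlc-3. The summits of the 2 replicates were 21 bp apart, so they differed in strength more than in place. The summits of the pair of mlc-3 peaks were 1033 bp apart, and 6.94% of optimal peaks had another optimal summit as close.

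Another mlc-3 region lay within the gene and was below the authors' filter. It covered 5565730 to 5566159, with the summit in an intron at 920 bp downstream of the 5′ end, and its pooled signal was 69.9 (rank 1829). It ranked 4109 in replicate 1 and 1955 in replicate 2. With weaker ones included, the mlc-3 window held 5 pooled regions, against a median of 1 over all genes and 4 each in the windows of mlc-1 and mlc-2. Of all genes, 9.61% had as many as mlc-3 or more, and 16.3% as many as mlc-1 or mlc-2, which share most of theirs. A weak region at 165 bp overlapped the peak at the mlc-3 5′ end, and one at 93 bp overlapped the mlc-1 peak.

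Both mlc-3 peaks depended on replicate 2. On the log2 scale, the rank in replicate 1 over that in replicate 2 was 3.42 for the upstream peak and 2.18 for the peak at the 5′ end. Over all optimal peaks this ratio had a median of 0.21 (quartiles -0.52 and 1.02), and 4.35% and 9.93% of them reached these values. The same ratio was 0.25 for the mlc-1 peak and -0.86 for the mlc-2 peak. With each replicate's 735 strongest regions in place of the optimal peaks, replicate 1 held mlc-1 and mlc-2 (4.73% of all genes were called) and replicate 2 held mlc-1, mlc-2 and mlc-3 (4.72%).

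mlc-4, the nonmuscle regulatory light chain gene at 3392514 to 3393787 on the minus strand of III, had only weak regions. The strongest pooled one covered 3394798 to 3395227, with the summit in intergenic sequence at -1226 bp. Its signal was 50.3 in the pooled list, 24.8 in replicate 1 and 22.9 in replicate 2. These are ranks 5007, 6298 and 14430, all outside the 735 strongest. The same region lies in the window of cri-3, the divergent neighbour, so mlc-4 and cri-3 had the same ranks. The next most similar gene over both replicates was pgl-3 (6371 and 14447). Of all genes, 23.8% had a region of that pooled rank or higher, against 2.66% at the rank of mlc-3. In the strongest mlc-4 region, 26 of the 395 words of 36 bp (6.58%) occurred elsewhere in the genome too, against 0 in each mlc-3 peak. The part of this in its signal was not tested.

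No pooled region lay between 1000 bp upstream and 500 bp downstream of the mlc-4 5′ end. Replicate 1 had a region there at 319 bp downstream (rank 20756) and replicate 2 one at -874 bp (rank 20809). These are different places, and the edge of the replicate 2 region overlapped the replicate 1 region with the summit at -1192 bp. A second pooled region, of rank 24793, had its summit at -2633 bp in the 5′ untranslated part of cri-3 and was matched in neither replicate's list.

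**Figure D2:**
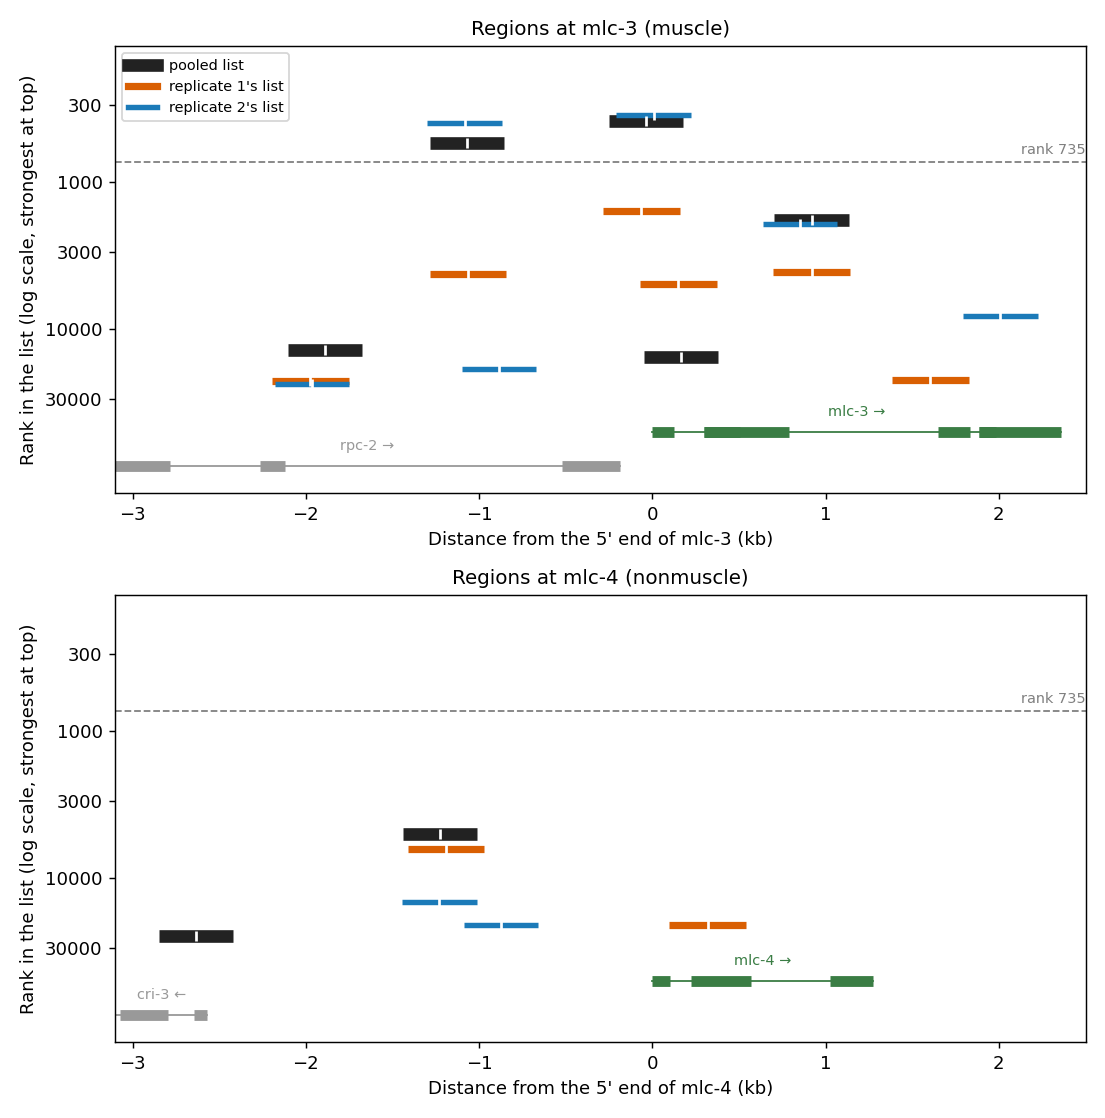
Regions at mlc-3 (top) and mlc-4 (bottom), drawn as in the map of mlc-1 and mlc-2, with the distance from the 5′ end of each gene in kb along the direction of transcription on the x axis and the rank on a log y axis. At mlc-3 the pooled list and replicate 2 have 2 regions above the dashed line at rank 735 and replicate 1 has none, with ranks 1590 and 4272, and at mlc-4 no region of any list is above it, the highest being at rank 5007.

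The order of the sites held at both ends and changed in the middle. The mlc-1 peak was the strongest and the mlc-4 region the weakest in the pooled list and in both replicates. In replicate 1 the mlc-2 peak (rank 389) stood above both mlc-3 peaks (1590 and 4272), and in replicate 2 it stood below both (708, against 351 and 400). In the pooled list mlc-2 (547) and the upstream mlc-3 peak (543) were neighbours, with signals of 115.2 and 115.6. The order of mlc-2 and mlc-3 is therefore not settled by these replicates. The smallest margin over the nonmuscle gene was in replicate 1, where the upstream mlc-3 peak had a signal of 27.5 and the mlc-4 region 24.8.

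**Figure D3:**
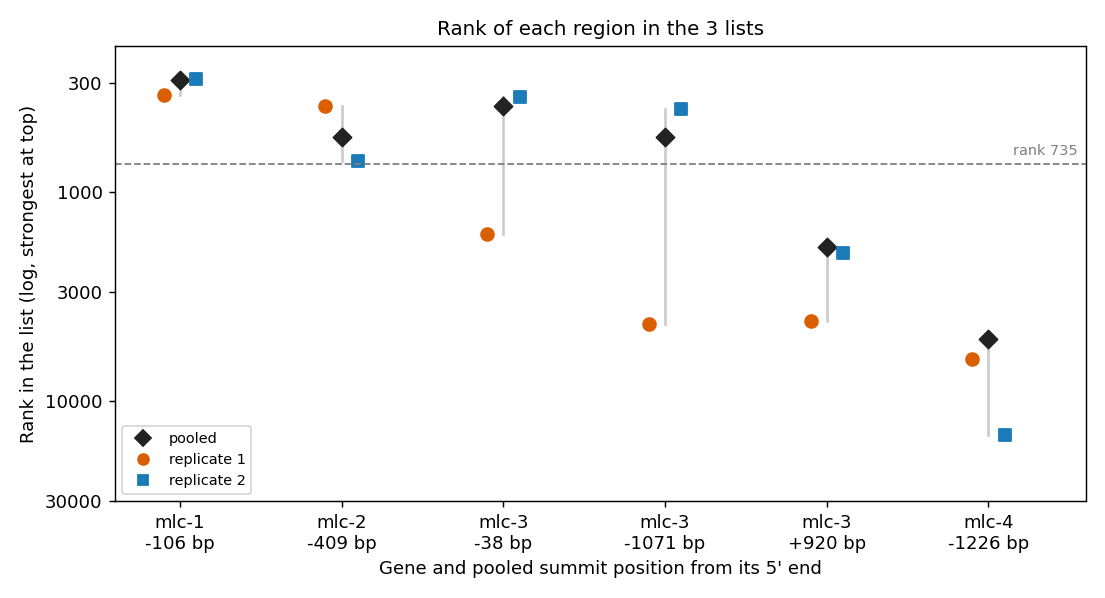
Rank of 6 regions at the light chain genes in the pooled list (black diamonds), replicate 1 (orange circles) and replicate 2 (blue squares), on a log y axis with the strongest at the top, by gene and summit position from its 5′ end on the x axis. Grey lines span the 3 ranks and the dashed line is rank 735. The mlc-1 ranks lie close together (288 to 343) and those of the upstream mlc-3 peak are far apart (400 to 4272).

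**Figure D4:**
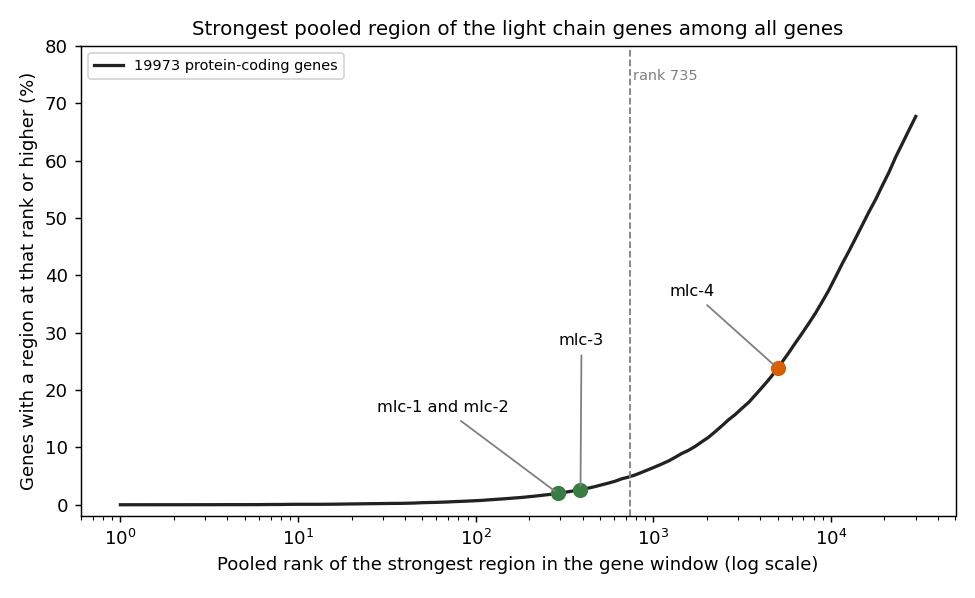
Share of the 19973 protein-coding genes (y axis, percent) whose strongest pooled region in the window has a given rank or a higher one (x axis, log scale), with the muscle genes in green and mlc-4 in orange. mlc-1 and mlc-2 lie at 1.99%, both through the peak beside mlc-1, and mlc-3 lies at 2.66%, all left of the dashed line at rank 735. At the rank of the peak beside mlc-2 (547) the share is 3.69%. mlc-4 lies at 23.8%.

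In position, the mlc-1 and mlc-3 peaks sat closer to a 5′ end than most optimal peaks. Of the 735 optimal peaks, 127 (17.3%) had the summit within 150 bp of the nearest protein-coding 5′ end, as these 2 did. The mlc-2 summit fell among the 44.4% within 500 bp, and the upstream mlc-3 summit among the 42% more than 1000 bp away.

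The summits at the muscle genes were rich in G and C. With 50 bp on each side of the summit, GC was 61.4% at mlc-1, 54.5% at mlc-2, 59.4% at the mlc-3 5′ end and 56.4% at the upstream mlc-3 site, and 33.7% at mlc-4. Optimal peaks held 50.5 ± 7.23% (SD over 735 peaks) and the other pooled regions 40.9 ± 8.96% (SD over 29265 regions). The 4 muscle sites were thus above the mean of the optimal peaks. As much GC was held by 5.44% of these for mlc-1 and 33.1% for mlc-2. For mlc-3 the shares were 10.1% at the 5′ end and 21.2% upstream. With 150 bp on each side, GC was 50.5% at mlc-1, 52.5% at mlc-2 and 54.5% at the mlc-3 5′ end. The upstream mlc-3 site then held 45.2%, close to the optimal mean of 44.6%. The weak intronic mlc-3 region (rank 1829) held 46.5% with 150 bp on each side and 42.6% with 50 bp. The part of base composition in these signals was not tested.

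**Figure D5:**
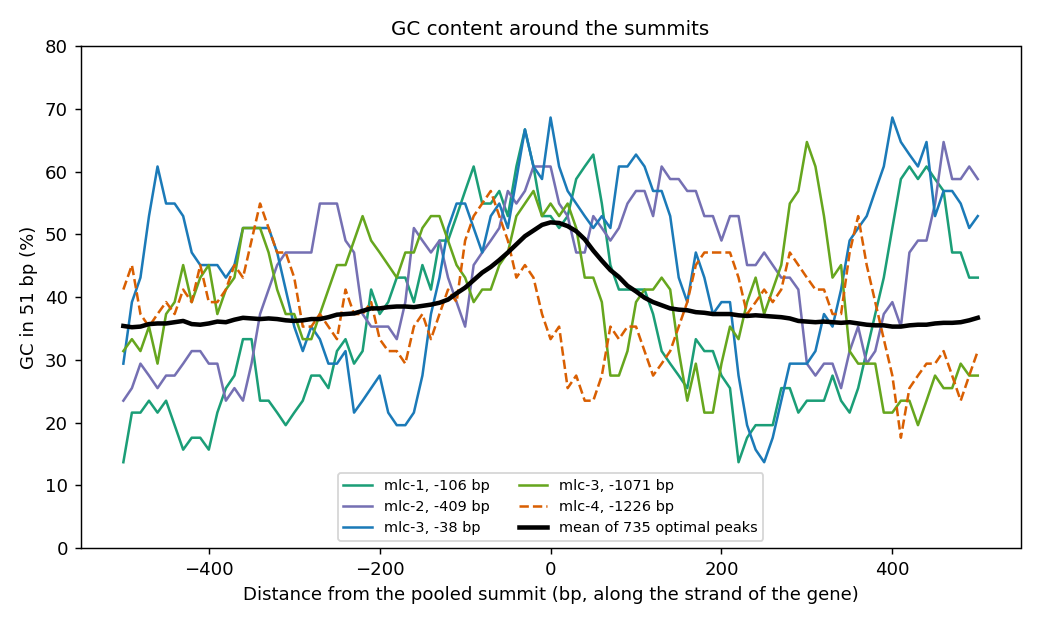
GC content in 51 bp windows (y axis, percent) against the distance from the pooled summit in bp along the strand of the gene (x axis) for the 4 optimal peaks at muscle light chain genes (solid), the mlc-4 region (dashed) and the mean of the 735 optimal peaks (black). At the summit the muscle sites run from 52.9% at mlc-1 to 68.6% at the mlc-3 5′ end, and the mean is 51.9%. The mlc-4 region is low there (33.3%) but reaches 56.9% at -70 bp. Over 50 bp on each side GC was 33.7% at mlc-4, against 54.5 to 61.4% at the muscle sites.

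Few of the 8 motifs occurred at the muscle summits. With 150 bp on each side of the summit, the mlc-1 site held 0 of them, the mlc-2 site held CANNTG, the mlc-3 5′ end held CANNTG and GAGAGA, and the upstream mlc-3 site held GAGAGA. The mlc-4 region held CANNTG and TATAAA. The wide E-box CANNTG was in 69.1% of optimal peaks and 67% of the other pooled regions, and GAGAGA in 45.4% and 22.6%. The TCTCTC matches printed above, GAGAGA on the other strand, began at -103 and -95 bp from the mlc-3 5′ end. The E-box CAGCTG, which the muscle factor HLH-1 binds, occurred at none of these 5 sites and in 9.39% of optimal peaks. Absence of a match says only that these letters are not in this window.

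Among other genes of muscle thick filaments, 3 of 11 had an optimal peak in the same window, against 4.9% of all genes, and 6 of 11 had a region within the 1470 strongest, against 9.05% of all genes. In the narrower window at the 5′ end, 1 of 11 had an optimal peak, against 2.58% of all genes. The 3 with a peak in the wider window were unc-15, unc-54 and myo-3. unc-15 encodes paramyosin (signal 177, rank 240, summit at -130 bp). unc-54 encodes the main body wall myosin heavy chain (114, rank 566), and myo-3 the other body wall heavy chain (104.7, rank 680). The unc-54 and myo-3 summits lay in introns, 1232 and 694 bp downstream of the 5′ end. Just below the filter were unc-89, which encodes obscurin (rank 926), the twitchin gene unc-22 (965) and the myosin chaperone gene unc-45 (1069). All 3 ranked lower in replicate 1 than in replicate 2: unc-89 at 3271 and 787, unc-22 at 2316 and 1173, and unc-45 at 3077 and 875. The unc-45 summit was nearest to the 5′ end of another gene. The pharyngeal heavy chain genes myo-2 and myo-1 were at ranks 7334 and 9106. The median rank of the list was 1069, against 15747 over all genes, but its genes are long (median 8112 bp against 2027 bp), which widens their windows.

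In the list of nonmuscle myosin and contractility genes, 3 of 16 had an optimal peak (4.9% of all genes) and 4 of 16 a region within the 1470 strongest (9.05% of all genes). In the narrower window 2 of 16 had an optimal peak (2.58% of all genes). The 3 with a peak in the wider window were mrck-1, spc-1 and the formin gene cyk-1. mrck-1 encodes a kinase that acts on the nonmuscle light chain (signal 302.2, rank 63), and spc-1 encodes alpha spectrin (164.2, rank 277). The cyk-1 summit (121, rank 490) lay at -1451 bp, outside the narrower window, and 28 bp from a small RNA gene. The heavy chain partners of MLC-4 were below the authors' filter, with nmy-1 at pooled rank 4214 and nmy-2 at 7989, as was the myosin phosphatase gene mel-11 (1923). In replicates 1 and 2 the strongest region ranked 9195 and 8694 for nmy-1 and 3143 and 2367 for mel-11. For nmy-2 the replicates were far apart, at 2241 and 15002. The median rank of this list was 2742, with a median gene length of 6634 bp. None of the other 3 genes with a light chain symbol had a peak, with mlc-5, the nonmuscle essential light chain gene, at rank 2554, mlc-6 at 14874 and mlc-7 at 24931.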

How the data were processed

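PAT-9 ChIP-seq was done in whole late embryos in 2 biological replicates that form 1 group. Per the file headers and descriptive text deposited with the lists, regions were called for each replicate and for both together against a control alignment on ce11, and IDR over these 3 lists gave the optimal list. The sources used here do not name the aligner, peak caller, versions or IDR threshold, and the control was not analysed here. The signal column, deposited by the authors, has no stated scale, so lists were set side by side by rank. The −log10 q column, also as deposited, had its maximum of 2.91 in 411 pooled regions and was not used to rank. Read depth is unknown, and with 2 replicates the precision is low.

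Genes and 5′ ends came from Ensembl release 115 (WBcel235, the assembly of ce11) and sequence from the RefSeq copy of that assembly. A replicate's match to a pooled region was the overlapping region with the nearest summit. Each share of genes counts all protein-coding genes, those without a region included. No chance test was run. The members, lists and motifs were chosen with earlier results of these data known. Named were the members, list genes within the 1470 strongest pooled regions, genes nearest to the members' summits and, per member, the 2 genes with the most similar log2 ranks in both replicates. Of the nonmuscle list, 1 gene within that limit is not reported here by name. Other names were chosen after their values were seen. The assignment to windows and the motif search were tested on simulated data. Alternatives were other windows, overlap in place of summits, stricter and looser thresholds, single replicates, the nearest 5′ end only, leaving out small RNA genes and other motif windows. The work used Python 3.11.15, NumPy 2.4.6, pandas 2.3.3, Biopython 1.88 and matplotlib 3.10.9.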

Additional observations from a re-analysis of the deposited data

How the results depend on the processing

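The count of light chain genes with a called region was 3 of 4 under 7 of the alternatives (promoter window, gene body left out, overlap, double the number of peaks, replicate 2 alone, nearest 5′ end only, no summits near small RNA genes) and 2 with the stronger 50% of the optimal peaks or with replicate 1 alone, so that single replicates gave 2 to 3. mlc-4 was never among them. With the stronger 50%, mlc-1 and mlc-2 were both counted through the same peak, the one beside mlc-1 (rank 290). The peak beside mlc-2 (547) and both mlc-3 peaks (389 and 543) were then left out. Leaving out each replicate gave ranks of 288 to 343 for mlc-1 and mlc-2, 351 to 1590 for mlc-3 and 6298 to 14430 for mlc-4, and a distance of -1229 to -1192 bp for mlc-4. The strongest region in the wide window of mlc-2 is the peak beside mlc-1, at -2518 bp. With the promoter window, or with regions given to the nearest 5′ end (an assignment chosen after seeing the data), it was the peak at rank 547 and -409 bp, because the other peak is then outside. mlc-4 has no value in the promoter window. With 50 in place of 150 bp on each side, the motif count at the strongest summit was 0 at mlc-3, against 2, and 1 at mlc-4, against 2, since the window is shorter. In the 300 bp at the gene start it was 0 at mlc-4. Of 47 alternative values, 35 stayed within 1.5 times the reported value for counts, or within 1 SD of the pair of replicate values for ranks and distances, and 12 moved by more. This share is a weak check. The SD comes from the same replicate values that were scored, and a count of 2 against 3 lies within the limit. The mlc-2 ranks in the wide window also repeat those of mlc-1. No paired analysis was possible because there is 1 group. Depth is unknown, so how far it limits weak regions such as those at mlc-4 could not be measured.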

Other observations

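Weak regions also lay over the bodies of the muscle light chain genes. The mlc-1 window held pooled regions with the summit in the first intron (rank 15366) and in the 3′ untranslated part (rank 14341), and the mlc-2 window held one in a coding exon (rank 17211). Parts of these genes occur elsewhere in the genome too, as given above for 36 bp words, and the part of this in the weak regions was not tested. An SRF CArG box lay within 150 bp of the summit of the weak region in the first intron of mlc-3 (rank 15463), and in 0.544% of optimal peaks and 2.13% of the other pooled regions. The weak regions in the first introns of mlc-1 and mlc-3 overlapped the strong peaks at the 5′ ends of these genes, so they are not clearly separate sites.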
